A study of Mus musculus with 8 samples.

Results

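The genes described here are 10 components of base excision repair: the DNA glycosylases Ung, Smug1, Ogg1, Nthl1, Neil3 and Mpg, and the core factors Apex1, Polb, Xrcc1 and Lig3. They were taken by symbol, with earlier results of these data known, and all 10 were found among the 52459 gene symbols of the deposited tables. Each of the 10 passed the filter on low counts. Base excision repair removes small damaged or wrong bases from DNA. A glycosylase cuts out the base, an endonuclease opens the backbone at the empty site, a polymerase fills the gap and a ligase seals the nick. The pathway also completes active DNA demethylation, in which Tet enzymes oxidise methylcytosine, Tdg removes the most oxidised forms, and the same endonuclease, polymerase and ligase restore an unmodified cytosine.

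RNA was sequenced from splenic leukaemia cells of 8 mice, 1 library per mouse. The leukaemia was made from cKit+ bone marrow cells of C57BL/6J mice that received a retrovirus encoding AE9a, a truncated RUNX1-RUNX1T1 fusion protein, together with a hairpin against Tet2 that doxycycline switches on, and the genotype is given as RTA shTet2 for all 8 mice. Recipients were lethally irradiated C57BL/6J mice of 6 to 8 weeks that also received wild-type support marrow, so spleens could hold non-leukaemic donor and host cells, and AE9a+ cells were taken when the mice were moribund. Mice 16, 17 and 19 were secondary recipients with sustained doxycycline and PBS (knockdown PBS). Mice 21 and 23 were secondary recipients whose doxycycline was stopped and which also got PBS (labelled restored). Mice 28 and 30 stayed on the drug and were treated with ascorbate, a cofactor of Tet enzymes. Mouse 12 was a primary recipient with the hairpin switched on and no treatment named. All secondary recipients received cells passed on from a primary leukaemia, and loss of doxycycline cannot be told apart from restoration of Tet2. The labels give each secondary library a mouse of its own. Whether the mice of a group received cells of the same primary leukaemia is not given in the sources used here.

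Library totals lay between 18.1 M and 34.2 M counts, lowest in mouse 28 and highest in mouse 12, and single counts of the 10 genes ran from 120 (Smug1, mouse 28) to 3532 (Apex1, mouse 12). Levels are given as CPM, counts relative to library totals scaled by the trimmed mean of M values (TMM). Tet2 was at 12.6, 12.8 and 13.5 CPM in mice 16, 17 and 19, at 14.1 and 23.0 CPM in the labelled restored mice 21 and 23, at 13.4 and 11.7 CPM in the ascorbate mice 28 and 30, and at 9.46 CPM in mouse 12. The library of mouse 21 therefore lay close to the knockdown libraries in Tet2. Labelled restored values without mouse 21 are given for Neil3, Mpg, Xrcc1 and Parp1. For Ung, Ogg1, Nthl1, Apex1 and Polb the closing section gives the range with each library left out. Of the 7 leukaemia and progenitor markers, Kit, Myb and the fusion partner Runx1t1 were high in each library, while the other 4 were low in the secondary libraries: Ptprc reached at most 9.77 CPM, Cd34 2.71, Mpo 1.65 and Elane 0.37 CPM. Cd34 was at 0 counts in mouse 21 and Elane in mice 16, 19 and 28. Erythroid markers were present in all libraries, with all 8 genes above 0 and a summed level of 4103 to 12336 CPM, and no neutrophil, T and NK cell, megakaryocyte or stromal list summed to more than 20.5 CPM. In bulk RNA, fewer cells of a type and less RNA per cell cannot be told apart.

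Before the values, the proximal promoters of Mpg, Neil3 and Lig3 are shown, since these 3 genes had the smallest adjusted p of the members against knockdown PBS. Each is the 250 bases before the RefSeq transcript start, on the gene's own strand, in the mouse build GRCm38.p6. RefSeq promoter windows were found for 9 of the 10 genes, all but Polb. Capitals mark matches to CCAAT (read as ATTGG on the other strand) and to the GC box GGGCGG (read as CCGCCC on the other strand). The E2F-type words TTTGGCGC, TTTCCCGC and TTTCGCGC were searched as well, on both strands, and no marked matches overlap.
Mpg, chr11:32226255-32226504, plus strand: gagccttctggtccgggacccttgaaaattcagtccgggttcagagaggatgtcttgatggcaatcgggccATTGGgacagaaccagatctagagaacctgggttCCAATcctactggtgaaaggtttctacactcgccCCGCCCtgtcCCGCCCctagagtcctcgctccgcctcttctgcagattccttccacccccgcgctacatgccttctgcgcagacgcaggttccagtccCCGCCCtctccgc
Neil3, chr8:53639066-53639315, minus strand: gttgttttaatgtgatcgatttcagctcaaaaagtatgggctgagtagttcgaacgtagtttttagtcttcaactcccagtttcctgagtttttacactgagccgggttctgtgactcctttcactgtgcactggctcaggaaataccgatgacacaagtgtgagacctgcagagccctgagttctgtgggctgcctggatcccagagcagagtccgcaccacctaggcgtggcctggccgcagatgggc
Lig3, chr11:82780859-82781108, plus strand: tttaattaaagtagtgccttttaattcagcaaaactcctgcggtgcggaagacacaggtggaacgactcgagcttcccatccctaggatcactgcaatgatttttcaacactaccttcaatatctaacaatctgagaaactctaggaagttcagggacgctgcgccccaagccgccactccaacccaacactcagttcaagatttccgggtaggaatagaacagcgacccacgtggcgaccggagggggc

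The Mpg window held 2 CCAAT and 3 GC box matches, whereas those of Neil3 and Lig3 held no match to any of the 3 motifs. Over all 32851 RefSeq promoter windows of the same length, 33.8% held CCAAT, 32.7% held GGGCGG and 1.53% held an E2F-type word. Among the other members, Ogg1 and Nthl1 held 2 CCAAT matches each and Smug1, Apex1 and Xrcc1 held 1 each. Ung and Ogg1 held 2 GC boxes each, and Nthl1 and Apex1 held 1 each. The Xrcc1 window lies inside the gene as annotated in GENCODE, and holds no annotated transcript start on its strand, so its match is not at the annotated start. The Smug1 window also lies inside its gene as annotated there. The Ung window ends inside its gene, at base 114130434 against an annotated start at 114130386. Those of Ogg1, Nthl1 and Lig3 end at or just past the annotated start. The E2F-type word TTTCGCGC was found in Nthl1 alone among the 9 windows, 132 to 125 bases before the start. These are matches of letters and not measured binding sites.

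All 10 genes were expressed in every library, and Apex1, the main endonuclease at empty base sites, was by far the most abundant. Per length, its deposited level was 71.0 ± 7.5 FPKM (SD, n = 3) in the knockdown PBS libraries, above 94.5% of the genes tested and 23.4 times the level of Smug1, the lowest. Between them lay Xrcc1 (10.6 ± 1.0 FPKM), Lig3 (9.25 ± 0.786 FPKM), Ung (8.37 ± 2.15 FPKM), Polb (8.23 ± 0.449 FPKM) and Nthl1 (7.53 ± 1.35 FPKM). Neil3 (6.21 ± 0.263 FPKM), Ogg1 (5.74 ± 1.43 FPKM) and Mpg (5.30 ± 0.715 FPKM) followed, and Smug1 was at 3.04 ± 0.280 FPKM. In that order only the steps from Apex1 to Xrcc1 and from Mpg to Smug1 had ranges that did not overlap. All genes were measured in the same 3 libraries, so overlap of ranges does not show that neighbours are equal. By deposited FPKM, Nthl1 was above its neighbour Neil3 in each library, for example (6.24 against 6.16, 8.94 against 5.97 and 7.42 against 6.49). The FPKM values imply lengths on a relative scale. That scale was set to bases by the median ratio to the exonic length in GENCODE over these 10 genes. The implied length then matched the exonic length within 1% for 8 members, a match of their lengths relative to each other. It was 0.397 times the exonic length for Nthl1 (1080 against 2718 bases) and 0.534 times it for Smug1 (3281 against 6141 bases). At the GENCODE lengths, a check chosen after the values were seen, Nthl1 was at 2.99 ± 0.538 FPKM and Smug1 at 1.62 ± 0.150 FPKM. Nthl1 then ranked ninth, with a range apart from those of Mpg and Smug1, and Apex1 was at 43.8 times the level of Smug1. Of the glycosylases outside the set, Mbd4, which removes thymine and uracil from mismatches at CpG sites, was at 3.48 ± 0.686 FPKM in the same libraries. That was near the deposited level of Smug1 and above its level at the GENCODE length. Tdg was at 0.503 ± 0.0473 FPKM. The lengths implied for genes outside the set were not checked. Parp1, the strand break sensor that recruits Xrcc1, was at 69.9 ± 4.89 FPKM, the level of Apex1.

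**Figure D1:**
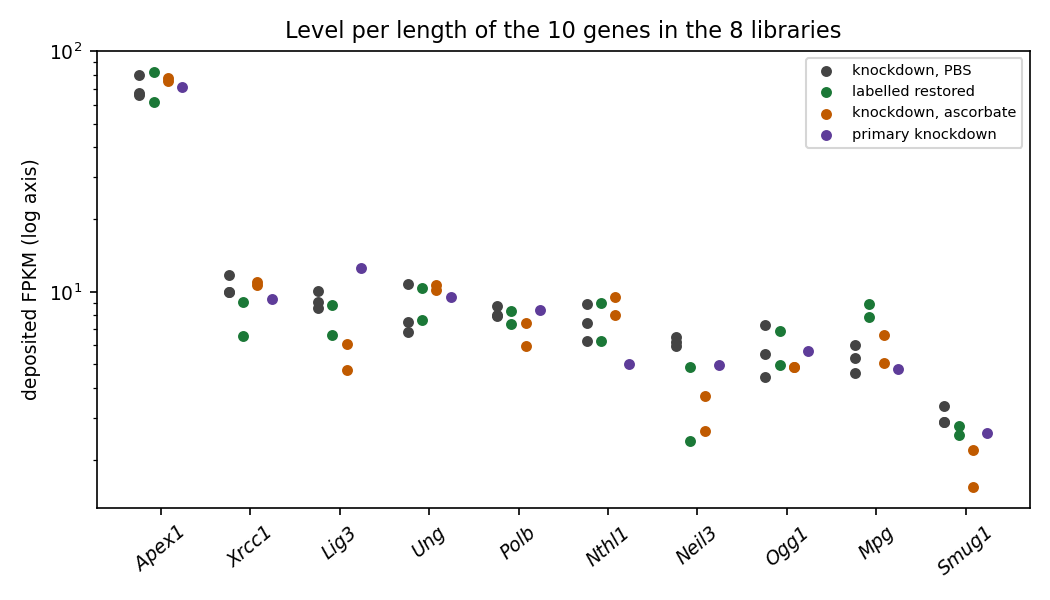
Level per length (deposited FPKM, log axis) of the 10 genes, ordered by their mean in the knockdown PBS libraries, with 1 point per library and 1 colour per group. Apex1 stands alone above 60 FPKM in all 8 libraries, while the others lie between 1.54 FPKM (Smug1, mouse 30) and 12.6 FPKM (Lig3, mouse 12).

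The study's design text sets 2 arms, labelled restored and ascorbate, against the same 3 knockdown PBS libraries, so the comparisons share these controls and their values are given side by side. None of the 10 genes passed an adjusted p of 0.05 in any of 4 comparisons with the edgeR quasi-likelihood test, which was fitted on all genes. Over all genes, 0% of 12137 passed in the labelled restored comparison (the smallest adjusted p was 0.0502), 2.86% in the ascorbate comparison, 0.00824% between the arms, and 0.115% of 13024 in the primary comparison. At an unadjusted edgeR p under 0.05 the members numbered 2 of 10 against 29.2% of all genes for labelled restored (Mpg, Neil3), 3 of 10 against 23.6% for ascorbate (Smug1, Neil3, Lig3), 2 of 10 against 16.2% between the arms (Mpg, Lig3), and 0 of 10 against 9.08% for primary. These shares of the members were near those of all genes.

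The median log2 fold change of the 10 genes was -0.01 in labelled restored and -0.10 in ascorbate, beside -0.0020 and -0.01 over all genes tested. In each of these comparisons 5 members were higher and 5 lower. The ranges of CPM in the groups did not overlap for 4 of 10 members in labelled restored, against 49.3% of all genes, for 4 of 10 in ascorbate, against 45.7%, and for 5 of 10 between the arms, against 44.6%.

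**Figure D2:**
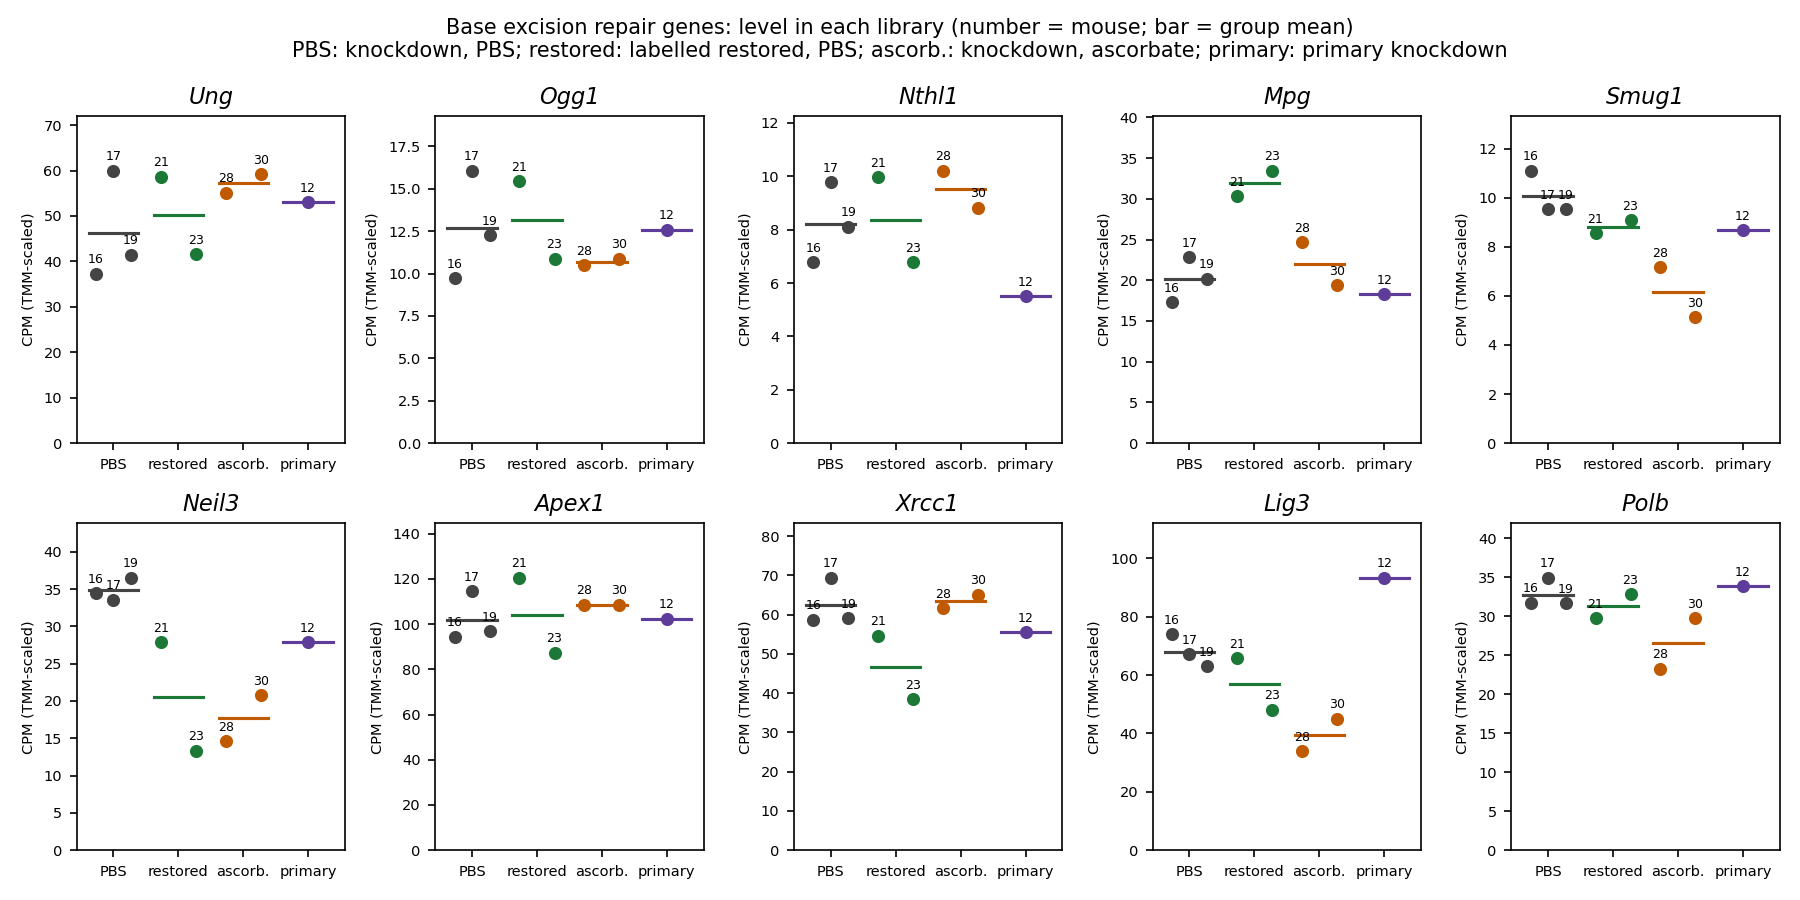
CPM of each of the 10 genes (vertical axes from 0, a scale of its own per gene) in the 8 libraries; points are libraries numbered by mouse and bars are group means. The ranges lie apart from knockdown PBS for Mpg (above), Smug1, Neil3 and Xrcc1 (below) in labelled restored, and for Smug1, Neil3, Lig3 and Polb (all below) in ascorbate.

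The uracil glycosylases came first in the pathway's order. Ung, the main enzyme that removes uracil from DNA, was at 37.3, 60.0 and 41.5 CPM in the knockdown PBS mice 16, 17 and 19, at 58.6 and 41.6 CPM in the labelled restored mice 21 and 23, at 55.1 and 59.2 CPM in the ascorbate mice 28 and 30, and at 53.0 CPM in the primary library. Mouse 17 was as high as the ascorbate libraries, and the groups overlapped throughout. Ung had a log2 fold change of 0.12 (SE 0.23, edgeR adjusted p = 0.747) in labelled restored and 0.32 (SE 0.23, edgeR adjusted p = 0.420) in ascorbate, and the 95% interval of the latter ran from 0.873-fold to 1.78-fold.

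Smug1 removes uracil and hydroxymethyluracil, a deaminated product of the Tet reaction. Its level was 11.1, 9.53 and 9.55 CPM in knockdown PBS, 8.57 and 9.08 CPM in labelled restored, 7.16 and 5.14 CPM in ascorbate and 8.67 CPM in the primary library. Both ascorbate libraries were below the other 6. In ascorbate Smug1 had a log2 fold change of -0.70 (SE 0.25, 95% interval -1.27 to -0.13, edgeR adjusted p = 0.141), and in labelled restored one of -0.18 (SE 0.25, edgeR adjusted p = 0.647). Set directly against each other, the arms differed by 0.52 (labelled restored minus ascorbate, SE 0.27, edgeR adjusted p = 0.377). At 120 and 123 counts in the ascorbate libraries, Smug1 was the most thinly counted of the 10 genes there.

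Among the glycosylases of oxidised bases, Ogg1 excises oxidised guanine and Nthl1 oxidised pyrimidines. Ogg1 was at 12.7 ± 3.19 CPM (SD, n = 3) in knockdown PBS, 13.2 ± 3.23 CPM (n = 2) in labelled restored, 10.7 ± 0.259 CPM (n = 2) in ascorbate and 12.6 CPM in mouse 12. Nthl1 was at 8.22 ± 1.5, 8.37 ± 2.26 and 9.52 ± 0.979 CPM in the same order, and 5.51 CPM in mouse 12. For both genes the knockdown PBS range (9.73 to 16.1 CPM for Ogg1, 6.78 to 9.78 CPM for Nthl1) overlapped that of either arm. Their log2 fold changes were 0.06 and 0.03 in labelled restored (edgeR adjusted p = 0.893 and 0.944) and -0.23 and 0.22 in ascorbate (edgeR adjusted p = 0.617 and 0.640). The 95% interval for Ogg1 in ascorbate ran from 0.563-fold to 1.28-fold.

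Neil3 acts on oxidised bases in single-stranded DNA and on crosslinks at replication forks, and is known for its expression in proliferating cells. Relative to its mean it had the tightest knockdown PBS values of the 6 glycosylases, 34.5, 33.6 and 36.5 CPM in mice 16, 17 and 19. The labelled restored mice 21 and 23 had 27.8 and 13.3 CPM, the ascorbate mice 28 and 30 had 14.6 and 20.7 CPM, and the primary library had 27.9 CPM. All 4 libraries of the arms, and the primary library, lay below the 3 knockdown PBS libraries, and mouse 21 was level with the primary library.

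The log2 fold change of Neil3 was -0.97 in ascorbate (SE 0.29, 95% interval -1.63 to -0.31, or 0.323-fold to 0.808-fold, edgeR adjusted p = 0.0989) and -0.75 in labelled restored (SE 0.29, 95% interval -1.40 to -0.10, edgeR adjusted p = 0.128). Between the arms the difference was 0.22 (SE 0.32, edgeR adjusted p = 0.773). The labelled restored value of Neil3 rested on mouse 23: it was -1.37 without mouse 21 and -0.33 without mouse 23. These are the values of mouse 23 alone and of mouse 21 alone against the controls. In ascorbate the Wald test of DESeq2 (adjusted p = 0.0140) and limma voom (adjusted p = 0.0307) put Neil3 past the threshold. With both tools more of all genes passed in ascorbate too than with edgeR. Of the 18 alternatives, 6 put Neil3 past the threshold in ascorbate, these tools among them. Over the 18 alternatives the ascorbate log2 fold change of Neil3 ran from -1.24 to -0.75.

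The 22 S phase and mitosis genes, like Neil3, were lowest in mice 23 and 28. Their median log2 difference from the knockdown PBS mean was -0.20 in mouse 21, -0.81 in mouse 23, -0.51 in mouse 28 and -0.08 in mouse 30, where Neil3 was at -0.32, -1.38, -1.25 and -0.74. In the controls 16, 17 and 19 that median was 0.08, 0.02 and -0.14. By this median alone mouse 30, with Neil3 at -0.74, lay within the range of the controls. Single genes of the list went either way in mouse 30. Ccne2 was at 17.7 CPM there against 25.4 to 37.2 CPM in the controls, and Cdt1 at 205 CPM against 133 to 177 CPM. The 2 lowest libraries, mice 23 and 28, also had the highest share of mitochondrial counts, 14.5% and 17.1% against 5.16% to 11.4% in the other 6. None of the 22 genes passed edgeR's threshold in either arm, with 21 of 22 lower in labelled restored (median log2 fold change -0.49) and 17 of 22 lower in ascorbate (median -0.28). Without mice 23 and 28, Neil3 was at -0.75 in ascorbate (edgeR adjusted p = 0.128) and at -0.31 in labelled restored (edgeR adjusted p = 0.420). The part of proliferation or of RNA quality in the Neil3 result was not tested.

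Mpg, the glycosylase of alkylated purines, was the member furthest above knockdown PBS. It was at 17.3, 22.8 and 20.2 CPM in knockdown PBS, 30.4 and 33.5 CPM in labelled restored, 24.7 and 19.4 CPM in ascorbate and 18.3 CPM in the primary library. Both labelled restored libraries were above all 6 others, mouse 21 included. The log2 fold change of Mpg was 0.68 (SE 0.20, 95% interval 0.23 to 1.12, or 1.18-fold to 2.17-fold, edgeR adjusted p = 0.0729) in labelled restored and 0.14 (SE 0.20, edgeR adjusted p = 0.688) in ascorbate. The arms differed by 0.53 (SE 0.22, 95% interval 0.04 to 1.03, edgeR adjusted p = 0.277). Without mouse 21 the labelled restored value was 0.75. The Wald test of DESeq2 on all secondary libraries gave an adjusted p of 0.0297, and with it more of all genes passed too than with edgeR.

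Mpg lies at chr11:32226505-32232700 on the plus strand of GRCm38, where 1340 of its exonic bases (35.7%) overlap exons of Nprl3 on the other strand. Since the strand setting of the counting is not given in the sources used here, reads of the pair cannot be told apart. Nprl3 itself had a log2 fold change of 0.07 (SE 0.22, edgeR adjusted p = 0.847) in labelled restored.

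**Figure D3:**
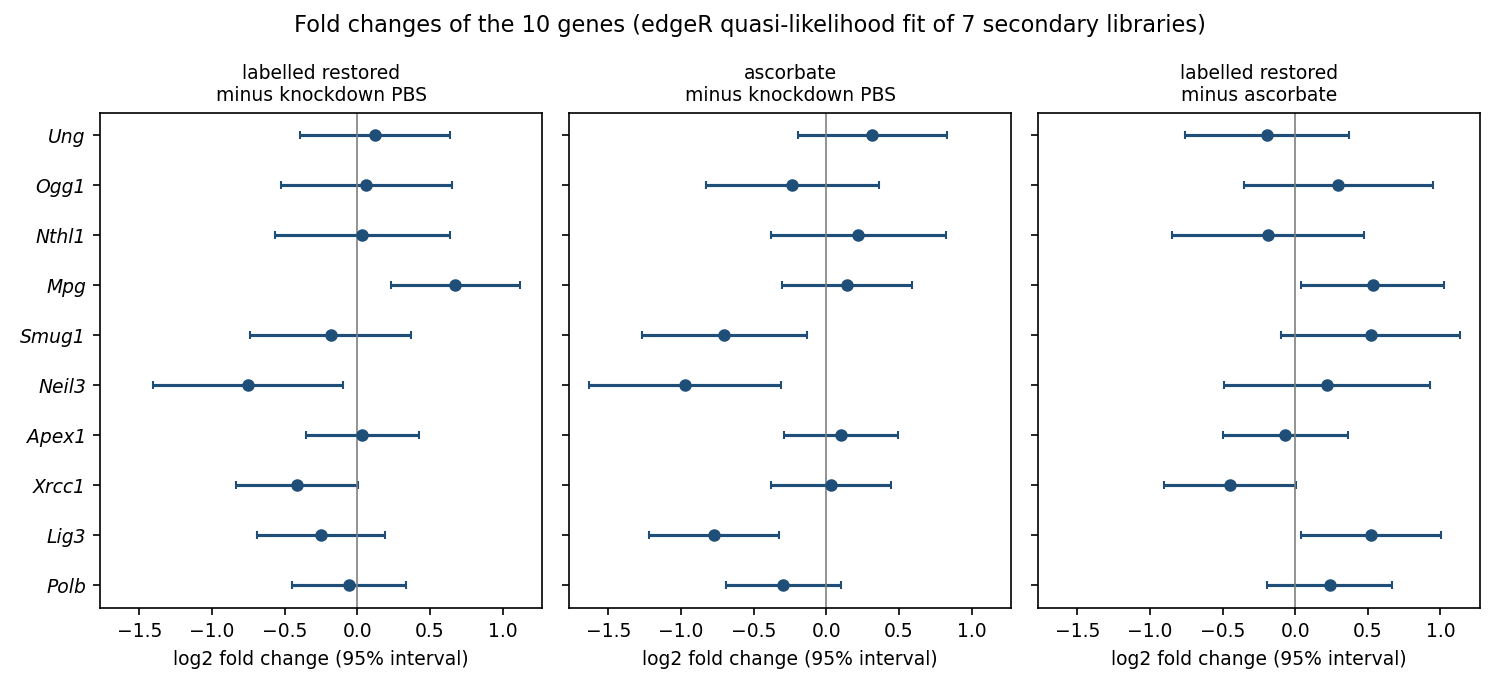
Log2 fold changes of the 10 genes with 95% intervals from the edgeR fit of the 7 secondary libraries, in 3 panels for labelled restored against knockdown PBS, ascorbate against knockdown PBS, and labelled restored against ascorbate; the grey line is no difference. The intervals lie clear of 0 for Mpg and Neil3 in the first panel, for Smug1, Neil3 and Lig3 in the second and for Mpg and Lig3 in the third, none with an adjusted p under 0.05.

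Downstream of the glycosylases, Apex1 incises the empty base site. It was at 94.5, 115 and 96.8 CPM in knockdown PBS, 120.5 and 87.4 CPM in labelled restored, 108.5 and 108.7 CPM in ascorbate and 102.5 CPM in mouse 12. The labelled restored pair bracketed all other libraries. In labelled restored Apex1 had a log2 fold change of 0.03 (SE 0.17, edgeR adjusted p = 0.914) and in ascorbate one of 0.10 (SE 0.17, edgeR adjusted p = 0.749), with a 95% interval in ascorbate of 0.819-fold to 1.41-fold. More than any other member it shares its exons: 877 bases, or 61.7%, lie under Pip4p1 (Tmem55b in the deposited tables) on the other strand, which had log2 fold changes of 0.55 and 0.40 (edgeR adjusted p = 0.0831 and 0.197).

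Polb, the gap-filling polymerase, was at 31.7, 34.9 and 31.7 CPM in knockdown PBS, 29.8 and 32.9 CPM in labelled restored, 23.3 and 29.8 CPM in ascorbate and 33.8 CPM in the primary library. Mouse 28 was the lowest, and mouse 30 was level with mouse 21. For Polb the log2 fold change came to -0.06 (SE 0.17, edgeR adjusted p = 0.852) in labelled restored and -0.29 (SE 0.17, 95% interval 0.621-fold to 1.07-fold, edgeR adjusted p = 0.336) in ascorbate.

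Xrcc1, the scaffold that holds Polb, Lig3 and the break sensors together, was at 58.7, 69.4 and 59.0 CPM in knockdown PBS, 54.7 and 38.4 CPM in labelled restored, 61.7 and 65.1 CPM in ascorbate and 55.6 CPM in mouse 12. Only mouse 23 stood well below the rest. Xrcc1 had a log2 fold change of -0.41 (SE 0.19, edgeR adjusted p = 0.174) in labelled restored and 0.03 (SE 0.18, edgeR adjusted p = 0.927) in ascorbate, and the arms differed by -0.45 (SE 0.20, edgeR adjusted p = 0.316). Without mouse 21 the labelled restored value was -0.68 (edgeR adjusted p = 0.0536), which is the value of mouse 23 alone against the controls.

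Lig3 encodes the ligase that seals the nick with Xrcc1 and is also the DNA ligase of mitochondria. It was at 74.0, 67.1 and 63.1 CPM in knockdown PBS, 65.8 and 48.1 CPM in labelled restored, 33.9 and 45.1 CPM in ascorbate and 93.3 CPM in the primary library. The 2 ascorbate libraries were the lowest of the 8 and the primary library was the highest. The log2 fold change of Lig3 was -0.78 in ascorbate (SE 0.20, 95% interval -1.22 to -0.33, or 0.429-fold to 0.797-fold, edgeR adjusted p = 0.0683) and -0.25 in labelled restored (SE 0.20, edgeR adjusted p = 0.412). Labelled restored exceeded ascorbate by 0.52 (SE 0.21, 95% interval 0.04 to 1.01), which did not pass (edgeR adjusted p = 0.275).

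As for Neil3, the ascorbate value of Lig3 lay close to the threshold and its call turned on the tool. It passed with the Wald test of DESeq2 (adjusted p = 0.00801), limma voom (adjusted p = 0.0352), no filter on low counts (edgeR adjusted p = 0.00459) and a fit of only the 2 groups compared (edgeR adjusted p = 0.0404), and in the leave-one-out fits without mouse 21 or without mouse 23. With DESeq2, voom, no filter or only the 2 groups compared, more of all genes passed too than in the main edgeR fit. For the leave-one-out fits only the range of that number is given, in the closing section. The log2 fold change of Lig3 stayed between -0.99 and -0.59 over the 18 alternatives. Without mice 23 and 28 it was -0.59 (edgeR adjusted p = 0.172). Exons of Rffl on the other strand cover 1826 bases (25.1%) of Lig3, and Rffl had a log2 fold change of 0.08 (SE 0.17, edgeR adjusted p = 0.802) in ascorbate and -0.53 (SE 0.18, edgeR adjusted p = 0.0909) in labelled restored.

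By the length that the deposited FPKM values imply, Lig3 is the longest of the 10, longer than 82.6% of the genes tested, and Nthl1 the shortest, longer than 8.30%. Over all tested genes, the rank correlation of this length with the difference from the knockdown PBS mean was -0.48 in mouse 21, -0.27 in mouse 23, -0.29 in mouse 28, -0.12 in mouse 30, 0.33 in mouse 12, and 0.41, -0.37 and -0.10 in the controls 16, 17 and 19. Genes share library and length here, so these are descriptions. With a length offset in the edgeR fit, Lig3 was at -0.65 (adjusted p = 0.0718) and Neil3 at -0.88 (adjusted p = 0.107) in ascorbate, and Mpg at 0.68 (adjusted p = 0.0862) in labelled restored. The short genes Ogg1, Nthl1 and Apex1, all close to 0 in labelled restored, took values of -0.11, -0.28 and -0.23 there.

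**Figure D4:**
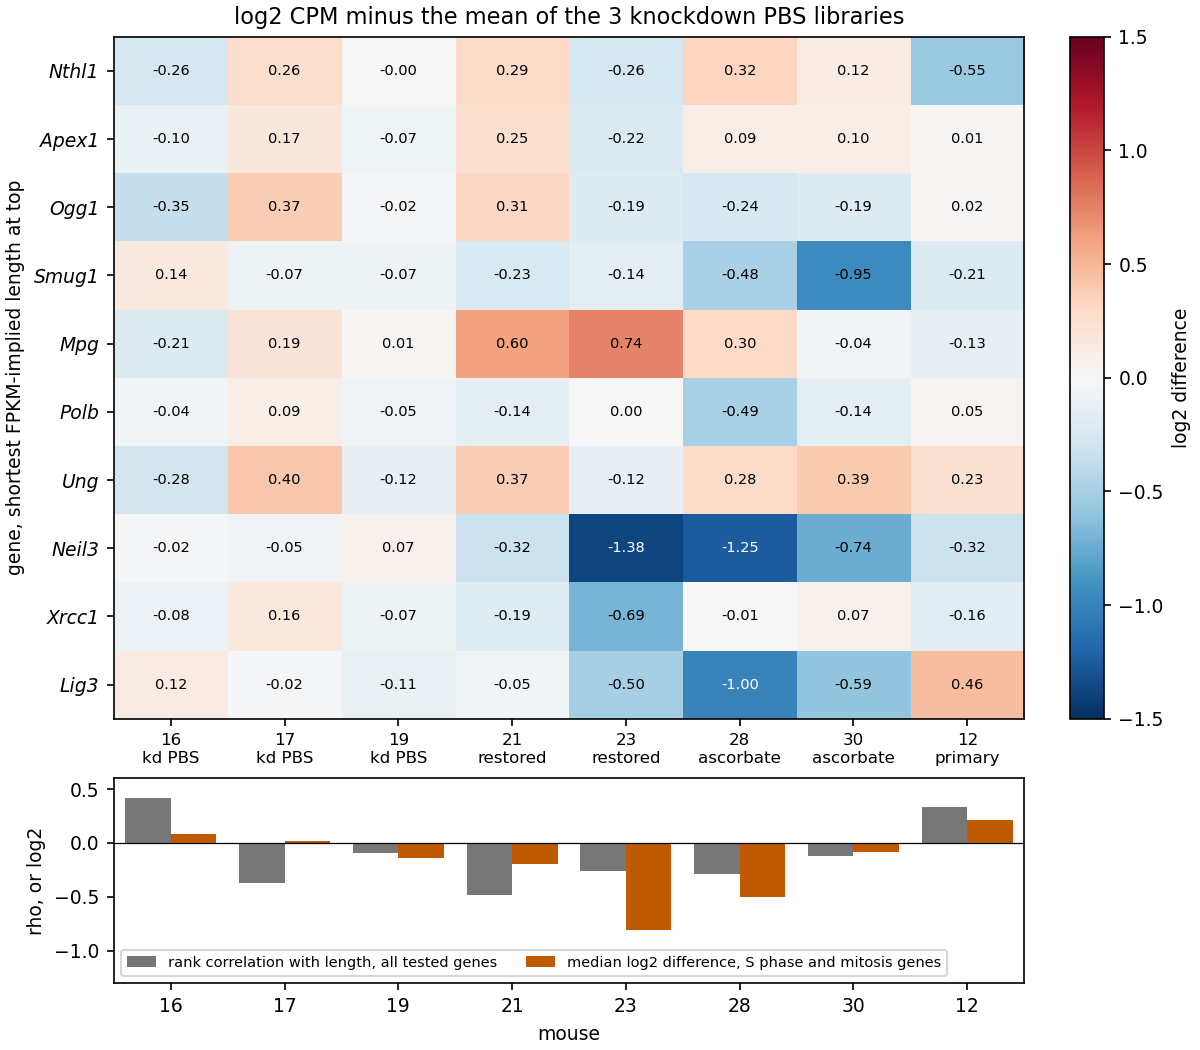
Upper panel: log2 CPM of each gene minus the mean of the 3 knockdown PBS libraries (colour and printed value), with genes ordered from the shortest to the longest by the length implied by the deposited FPKM and columns by mouse. Lower panel: for the same libraries, the rank correlation of this difference with that length over all tested genes (grey) and its median over 22 S phase and mitosis genes (orange). Neil3 is lowest in mice 23 and 28 (-1.38 and -1.25), where the S phase and mitosis median is lowest too (-0.81 and -0.51).

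Markers of other cell types also differed between the groups. The summed level of 8 macrophage markers was 30.8 to 60.6 CPM in knockdown PBS, 8.48 to 22.1 CPM in labelled restored, 18.2 to 18.3 CPM in ascorbate and 16.5 CPM in mouse 12, with all 8 detected in every library. That of 5 mast cell and basophil markers was 73.9 to 129.5 CPM, 411 to 489 CPM, 232 to 303 CPM and 329 CPM in the same order, with 1 marker at 0 in mouse 16. All 8 macrophage markers were lower and all 5 mast cell and basophil markers higher in either arm. In ascorbate 2 of the 8 and 1 of the 5 passed edgeR's threshold, against 2.86% of all genes. None of them passed in labelled restored. The 5 B cell markers summed to 24.4 to 26.6 CPM, 11.7 to 25.2 CPM, 10.5 to 20.2 CPM and 81.6 CPM. Of these 5, all were lower in either arm (median log2 fold change -0.43 in labelled restored and -1.02 in ascorbate) and none passed edgeR's threshold. Of the 8 erythroid markers, 6 were lower in labelled restored (median -0.56) and 7 in ascorbate (median -0.52), none past the threshold, while their summed level, most of it Hbb-bs, overlapped between the groups. The part of these cells in the values of Mpg, Neil3, Lig3 or Smug1 was not tested.

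In the primary library, set against the 3 secondary knockdown PBS libraries in a fit of all 8, the log2 fold changes of the 10 genes ran from -0.60 (Nthl1, SE 0.36, edgeR adjusted p = 0.673) to 0.43 (Lig3, SE 0.24, edgeR adjusted p = 0.647). Of the 10, 3 were higher and 7 lower, with a median of -0.10 beside -0.01 over all genes. Nthl1 at 5.51 CPM and Lig3 at 93.3 CPM lay outside the range of all 7 secondary libraries. The other members lay inside that range. The share of all genes outside it was not computed, so whether Nthl1 and Lig3 stand out from other genes is not known. The primary leukaemia had 1 library and therefore no replicate. The lone library was assumed to vary like the other groups.

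Across the 8 libraries the members did not move as a block. In a description of log2 CPM over 8 libraries that differ together in depth and in the length relation, the pairs closest to each other were Ung with Apex1 (Pearson r = 0.88, Spearman rho = 0.86), Neil3 with Lig3 (r = 0.77, rho = 0.62) and Lig3 with Polb (r = 0.76, rho = 0.67). The pairs most opposite by r were Mpg with Xrcc1 (r = -0.62, rho = -0.31), Ung with Smug1 (r = -0.61, rho = -0.62) and Mpg with Neil3 (r = -0.58, rho = -0.62). The summed CPM of the 10 genes was 376, 438 and 379 in knockdown PBS, 421 and 322 in labelled restored, 350 and 373 in ascorbate and 411 in the primary library, so the lowest and highest sums were those of mice 23 and 17.

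Among 8522 genes with a mean of at least 5 CPM, those whose log2 CPM over the 8 libraries was most like that of Mpg were Tsr3 (r = 0.996), Gtpbp6 (r = 0.993) and Faap20 (r = 0.989). Those most like Neil3 were Map3k6 (r = 0.972), Tcf7l2 (r = 0.968) and Steap3 (r = 0.967), and those most like Lig3 were Rrp8 (r = 0.988), Aasdhppt (r = 0.986) and Prosc (r = 0.984). With 8 libraries and this many genes searched, such values are a description of likeness only.

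The rest of the pathway was read from lists of related genes. None of the 5 other glycosylases passed edgeR's threshold in either arm: Tdg, the glycosylase of active demethylation, was at -0.06 (SE 0.34, edgeR adjusted p = 0.921) in labelled restored and -0.04 (SE 0.35, edgeR adjusted p = 0.954) in ascorbate. Mbd4 was at -0.19 and -0.50 (edgeR adjusted p = 0.622 and 0.259), Mutyh, which removes adenine opposite oxidised guanine, at 0.38 and 0.02, and Neil1 at -0.10 and -0.40. None of 11 strand break and end processing genes passed in either arm, with 8 of 11 lower in each. Parp1 was at 374 ± 25.5 CPM (SD, n = 3) in knockdown PBS, 192 ± 67.1 CPM (n = 2) in labelled restored and 344 ± 11.1 CPM (n = 2) in ascorbate, and its log2 fold change in labelled restored was -0.95 (SE 0.20, edgeR adjusted p = 0.0520). Without mouse 21 that value was -1.35, which is the value of mouse 23 alone against the controls. Aptx, which cleans abortive ligation ends, was at 0.73 in labelled restored (SE 0.22, edgeR adjusted p = 0.0780), and Apex2, a second endonuclease, at -0.57 in ascorbate (SE 0.21, edgeR adjusted p = 0.141).

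None of 13 long patch genes, which replace a longer stretch with the replication enzymes, passed in either arm, and 10 were lower in labelled restored and 8 in ascorbate. The small polymerase delta subunit Pold4 was at 1.14 (SE 0.26, edgeR adjusted p = 0.0541) and the clamp loader subunit Rfc1 at -0.83 (SE 0.20, edgeR adjusted p = 0.0542) in labelled restored. Pole was at -0.69 there (SE 0.23, edgeR adjusted p = 0.0935). None of the 2 direct reversal genes tested passed, Alkbh2 at 0.18 and 0.58 and Alkbh3 at 0.39 and 0.16 in the 2 arms, and Mgmt was below the filter. Among 12 nucleotide pool and base damage genes tested, Nudt18 was at 0.74 and -0.40 and Samhd1 at -0.26 and -0.14 in the 2 arms. Of the 12, 1 passed, against 2.86% of all genes. Apobec2, a member of the cytidine deaminase family, rose in ascorbate by 1.29 on the log2 scale (SE 0.28, edgeR adjusted p = 0.0448). Its level was 42.1, 33.0 and 62.0 CPM in knockdown PBS, 96.9 and 83.9 CPM in labelled restored and 82.6 and 139.2 CPM in ascorbate, so the ranges did not overlap. Of 18 alternatives 9 put it past the threshold and 9 did not, among them the fits without mouse 16, 17, 19, 28 or 30, whose log2 fold changes ran from 0.88 (without mouse 30) to 1.61 (without mouse 28).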

How the data were processed

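RNA-seq libraries of 8 mice were analysed, all columns of both tables being matched to samples by name. A table deposited by the authors holds unnormalized whole-number counts for each gene symbol, and the other holds FPKM values that the authors rounded to hundredths. STAR, featureCounts and DESeq2 with mm10 (GRCm38) are named, per the submitters' processing notes. Their versions, annotation and strand setting are not given in the sources used here. Libraries were made from mRNA captured on oligo-dT beads with the NEXTflex kit, per the labels' protocols.

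Counts were tested with edgeR 4.0.16 (R 4.3.3): TMM factors, filterByExpr with a minimum count of 10, robust quasi-likelihood fit, two-sided test, Benjamini-Hochberg adjustment over all genes tested and a threshold of 0.05. The 3 comparisons of secondary groups came from 1 fit of 7 libraries (12137 genes), and the primary comparison from a fit of all 8 (13024 genes). SE is the absolute log2 fold change divided by the square root of the F statistic, and intervals are 95%. Transcript length was taken from the ratio of count to FPKM, on a relative scale that was set to bases by the 10 members. Alternatives were other scalings, DESeq2 1.42.0, voom and trend fits of limma 3.58.1 (the latter on log2(FPKM + 0.1) and log2(FPKM + 1)), no filter, a length offset, other sets of libraries and each library left out. The procedure was tested on simulated data. Coordinates and exon overlaps are from GENCODE vM21, and promoters from RefSeq.

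All 10 members are named. From each list of related genes those with the smallest unadjusted p in either arm are named, up to 3, and always Tdg, Mbd4 and Parp1. Cdt1 was named outside this rule, as an S phase gene that was higher in mouse 30. For likeness, the 3 genes of highest Pearson correlation are named for the members with the largest spread of group means. The members and lists were chosen with earlier results of these data known. P-values measure the spread between libraries, each from 1 mouse.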

Additional observations from a re-analysis of the deposited data

How the results depend on the processing

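No member passed edgeR's adjusted p of 0.05 in any comparison. In labelled restored against knockdown PBS, 2 members (Mpg, Neil3) passed with the Wald test of DESeq2 and 2 without a filter on low counts, and 0 to 1 (Neil3, without mouse 21) when each library was left out. In ascorbate, 2 members (Neil3, Lig3) passed with DESeq2, with limma voom, without a filter and with only the groups compared, and 0 to 2 when each library was left out. Between the arms and in the primary comparison 0 members passed under every alternative run. Where members passed with another tool, no filter or only the groups compared, more of all genes passed too than in the main edgeR fit. In labelled restored this also held without mouse 21, a fit that leaves mouse 23 alone in its group. Those numbers are given in the next paragraph. Of 710 member fold changes under alternatives, 654 kept their direction and side of the threshold, 17 newly passed and 39 changed sign, all with a main log2 fold change of at most 0.22 in size. No paired analysis was possible because the groups share no replicate numbers.

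The number of genes passing depended strongly on the tool. For labelled restored it was 0 in edgeR, 367 with DESeq2 size factors, 1906 with the DESeq2 test, 2207 without a filter and 1692 without mouse 21. For ascorbate it was 347, with 1286 in DESeq2, 1105 in voom, 1498 without a filter, 855 with only the groups compared, 2 to 796 when each library was left out and 37 without mice 23 and 28. Between the arms it was 1, with 426 in DESeq2 and 582 without a filter, and for primary 15, with 231, 467 and, in voom, 279.

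Signs changed as follows, in log2 fold changes. With the length offset, labelled restored Ogg1 was -0.11, Nthl1 -0.28 and Apex1 -0.23, ascorbate Apex1 -0.036, and primary Ogg1 0.10 and Apex1 0.16. With library totals, ascorbate Apex1 was -0.0090 and Xrcc1 -0.075, and Apex1 between the arms 0.056. In primary, Apex1 was 0.021 with voom, 0.0018 with either FPKM pseudocount and 0.0065 without a filter, Ogg1 0.0095 with FPKM + 0.1 and 0.0049 with FPKM + 1, and Polb -0.0059 with only the groups compared. Without mice 23 and 28, an alternative chosen after seeing the data, ascorbate Mpg was -0.054, and between the arms Nthl1 was 0.18 and Apex1 0.16.

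With each library left out in turn, labelled restored ranged from -0.13 to 0.35 for Ung, -0.20 to 0.28 for Ogg1, -0.26 to 0.28 for Nthl1, -0.20 to 0.24 for Apex1 and -0.14 to 0.023 for Polb. Ascorbate ranged from -0.053 to 0.32 for Mpg and -0.0078 to 0.11 for Xrcc1. Between the arms it ranged from -0.46 to 0.022 for Ung, -0.49 to 0.053 for Nthl1, -0.40 to 0.64 for Neil3 and -0.31 to 0.14 for Apex1, and in primary from -0.16 to 0.17 for Ogg1 and -0.036 to 0.071 for Apex1. The cause of these changes was not tested, and fits that leave an arm with 1 library assume that it varies like the others.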
